A study of Homo sapiens with 12 samples.

Results

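The genes described here are 10 regulators and markers of the blood stem and progenitor cell program: CD34, CRHBP, ERG, MECOM, MYB, HOXA9, HOXA10, MEIS1, MSI2 and BMI1. They were chosen by symbol, as rows of the gene count tables whose identifiers match these names, and are 10 of 63677 genes in the tables. The cells were SET-2, an established human line that the labels call acute myeloid leukaemia. They were sequenced from the 3′ ends of polyadenylated RNA in 12 libraries, 3 in each of 4 groups. The groups were insR cells given 250 nM GSK-LSD1, insR cells given DMSO, WT cells given 250 nM GSK-LSD1 and WT cells given DMSO, all for 48 h, with DMSO at 0.1% by volume. GSK-LSD1 is an inhibitor of the histone demethylase LSD1. WT cells carried wild-type LSD1, and insR cells were the resistant cells, with an inserted arginine between Leu659 and Asn660 of LSD1. The sources used here do not say whether the insR cells were 1 clone. A difference between insR and WT cells is thus one between cell populations.

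Blood stem cells keep their identity through transcription factors such as ERG, MECOM, MYB, MEIS1 and the HOXA proteins, which bind enhancers together and whose levels change as cells enter a lineage. MSI2 acts on mRNA and BMI1 on chromatin to maintain self-renewal, while CD34 and CRHBP are known as markers of immature cells. Many acute myeloid leukaemias keep parts of this program switched on. LSD1 is brought to many of its targets by the repressors GFI1 and GFI1B.

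The sequences before the gene starts are shown for 2 factors that were higher under GSK-LSD1 in WT cells, ERG and MECOM, and for 2 that were lower in insR cells, HOXA9 and MEIS1. Each is the 250 bases before a RefSeq start on GRCh38.p14, read on the strand of the gene, and all 10 members matched the RefSeq table, with 18 starts among them. ERG has 4 listed starts and MECOM 3, and 3′ reads do not say which is used. These 4 windows hold no annotated exon of GENCODE v29 on the strand of the gene, whereas the windows of CD34 and CRHBP lie within annotated exons and are not shown. The ERG window is chr21:38498505-38498754 (minus strand), the MECOM window chr3:169663713-169663962 (minus strand), the HOXA9 window chr7:27165538-27165787 (minus strand) and the MEIS1 window chr2:66434875-66435124 (plus strand). Capitals mark 6-base motifs on either strand: AGATAA or TGATAA for GATA factors, AGGAAG for ETS factors such as ERG, AATCAC for GFI1 and GFI1B, and TGACAG for MEIS factors.
ERG: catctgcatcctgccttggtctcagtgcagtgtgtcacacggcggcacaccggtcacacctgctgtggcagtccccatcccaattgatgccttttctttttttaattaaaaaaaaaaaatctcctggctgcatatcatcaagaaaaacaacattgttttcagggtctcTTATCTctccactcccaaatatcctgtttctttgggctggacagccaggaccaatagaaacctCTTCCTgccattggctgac
MECOM: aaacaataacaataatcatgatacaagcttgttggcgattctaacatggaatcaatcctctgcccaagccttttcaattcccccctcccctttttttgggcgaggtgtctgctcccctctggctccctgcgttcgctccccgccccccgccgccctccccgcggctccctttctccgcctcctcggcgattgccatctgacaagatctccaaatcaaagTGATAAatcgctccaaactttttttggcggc
HOXA9: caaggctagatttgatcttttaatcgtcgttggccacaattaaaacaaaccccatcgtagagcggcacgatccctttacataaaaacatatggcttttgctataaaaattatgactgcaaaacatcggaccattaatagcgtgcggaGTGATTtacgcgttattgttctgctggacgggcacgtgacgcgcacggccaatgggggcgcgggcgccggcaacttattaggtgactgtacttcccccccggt
MEIS1: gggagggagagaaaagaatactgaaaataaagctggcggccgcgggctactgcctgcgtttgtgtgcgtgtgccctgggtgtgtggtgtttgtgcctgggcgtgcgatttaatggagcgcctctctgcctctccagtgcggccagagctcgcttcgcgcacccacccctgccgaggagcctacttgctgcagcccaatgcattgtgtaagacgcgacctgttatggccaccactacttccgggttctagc
The ERG window held a GATA motif beginning 82 bases before the start and an ETS motif beginning 19 bases before it. The MECOM window held a GATA motif beginning 31 bases before the start. The bases just after this MECOM start matched no MECOM transcript of GENCODE v29, whereas those after the other starts shown matched in part. The HOXA9 window held the GFI1 motif beginning 103 bases before the start, and the MEIS1 window held none of these letters. Among 35116 RefSeq windows of 250 bases, 14.6% held a GATA motif, 28.7% the ETS motif, 9.02% the GFI1 motif and 13.03% the MEIS motif. In the 18 windows of the members the counts were 4, 2, 1 and 3 windows in the same order of motifs. The windows of the first and second ERG starts overlap, so the 2 windows with the ETS motif hold the same site, and that pair also counts 1 GATA site 2 times. The windows of the other 2 ERG starts held none of these motifs. These matches are a description of letters only.

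The libraries held between 4837096 and 10141155 reads in genes, and 12864 genes, with all 10 members among them, had enough counts to be tested. KDM1A, the gene of LSD1, averaged 106 ± 4.56 CPM (the usual depth-scaled count, here with the TMM library size as its total) in insR GSK-LSD1 and 109 ± 2.18 in insR DMSO libraries, against 217 ± 3.01 in WT GSK-LSD1 and 265 ± 26.5 in WT DMSO libraries (SD, n = 3 each). Reads at the 3′ end do not read the inserted codon. Summed erythroid markers lay at 3628 to 4151 CPM in insR GSK-LSD1, 4603 to 5457 in insR DMSO, 211 to 226 in WT GSK-LSD1 and 1940.3 to 2118 in WT DMSO libraries, with all 7 listed genes detected. Monocyte markers summed to 153 to 163, 128 to 134, 281 to 308 and 105 to 129 CPM in the same groups, with FCN1 at 0 in all libraries. Megakaryocyte markers summed to 715 to 778, 741 to 795, 1138 to 1315 and 772 to 825 CPM, with PF4 at 0. Granulocyte markers summed to 14.2 to 16.4, 13.9 to 17.9, 23.8 to 26.9 and 22.7 to 24.4 CPM, with AZU1 at 0, and lymphoid markers to 20.5 to 26.6, 17.4 to 22.0, 46.1 to 58.8 and 25.6 to 31.6 CPM, with MS4A1 at 0. The erythroid sums were lower and the monocyte, megakaryocyte and lymphoid sums higher in WT GSK-LSD1 than in WT DMSO libraries, the comparison in which 6 members were higher. The megakaryocyte sum was mostly ITGA2B, at a mean of 1182 CPM in WT GSK-LSD1 and 735 CPM in WT DMSO libraries. GP9 (3.08 and 9.63 CPM) was lower in WT GSK-LSD1 libraries. The mean of GP1BA (37.4 and 58.9 CPM) was also lower in WT GSK-LSD1 libraries, but its libraries overlapped between the groups. Among the monocyte genes CD68 was also lower there, at 8.60 CPM in WT GSK-LSD1 and 10.4 CPM in WT DMSO libraries. The erythroid sums were higher in both insR groups than in both WT groups, and were mostly HBG1 and HBG2. HBA2 went the other way against WT DMSO libraries, where it averaged 44.8 CPM. It averaged 19.1 CPM in insR GSK-LSD1 and 33.1 CPM in insR DMSO libraries. The part of these markers in the results below was not tested. In bulk RNA, fewer cells of a type and less RNA per cell cannot be told apart.

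In WT cells, GSK-LSD1 was followed by higher levels of 6 of the 10 members, CD34, CRHBP, ERG, MECOM, MSI2 and MEIS1, and by lower levels of none. Among all genes tested, 22.7% were called higher and 22.5% lower in this comparison. The call rule throughout was a Benjamini-Hochberg adjusted p below 0.05 over all genes tested, in edgeR's quasi-likelihood test. The median log2 fold change of the 10 members was 0.71, or 0.65 without CRHBP, which passed the count filter only through WT GSK-LSD1 libraries, beside 0.01 over all genes. Without CRHBP, 5 of 9 members were called higher. HOXA9, HOXA10, BMI1 and MYB were not called. The count of members called was between 4 and 7 over the alternatives run. In insR cells, 0 of the 10 members were called by edgeR, beside 0.241% of all genes called higher and 0.264% called lower. CD34 and ERG had an unadjusted p under 0.05 there, and DESeq2 called 1 member and both limma fits 0. The share of all genes at that unadjusted threshold is not given here. The responses differed between genotypes for 4 members, CD34, ERG, MECOM and MSI2, each smaller in insR than in WT cells, beside 11.8% of all genes with a lower and 13.3% with a higher response in insR cells.

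**Figure D1:**
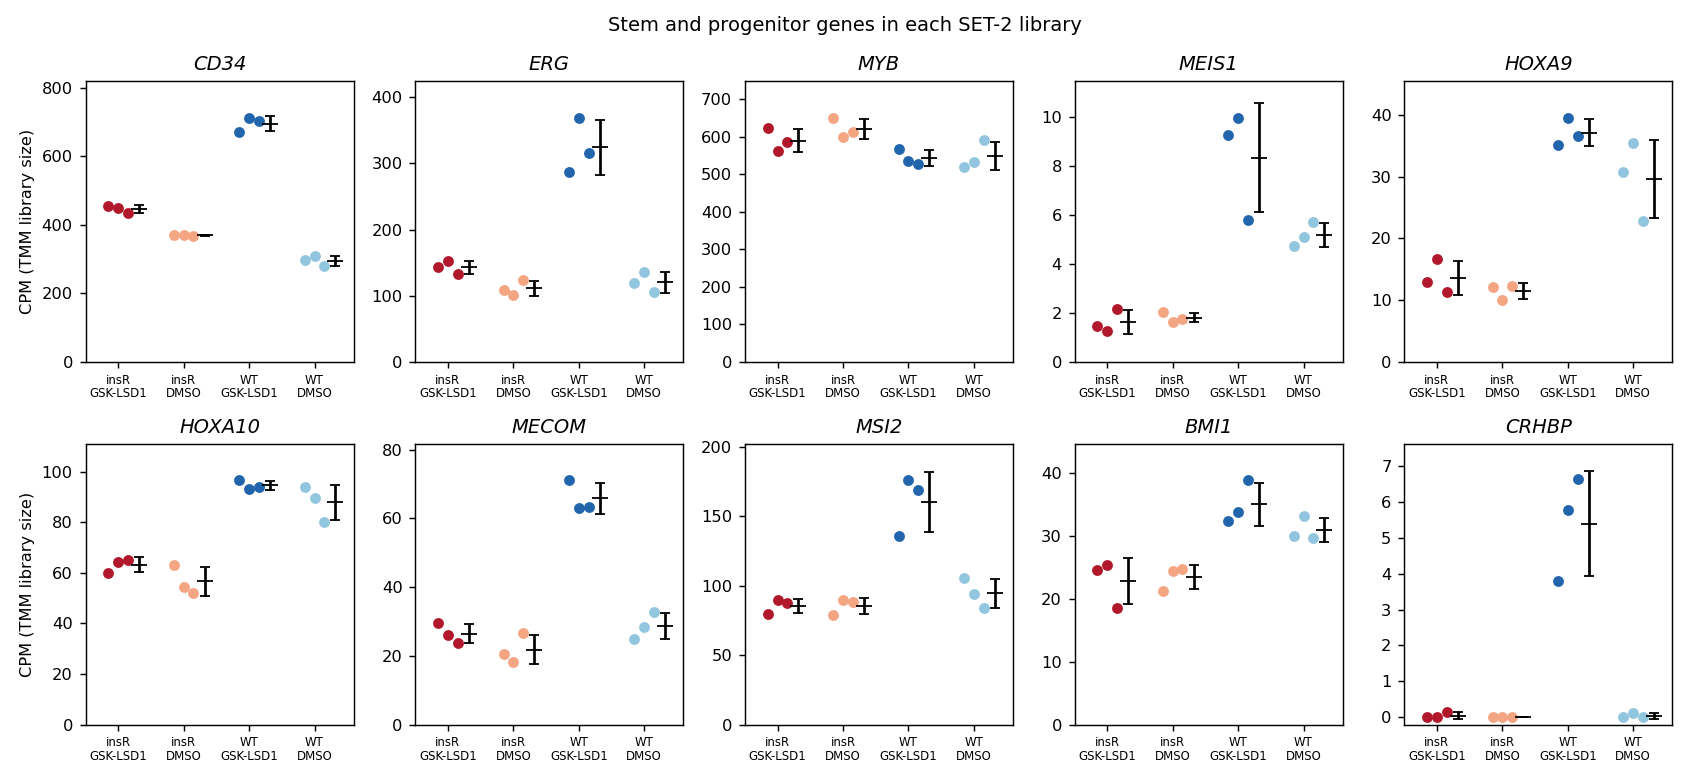
CPM of each member in every library, by group, with the mean and SD (n = 3) in black beside the points; vertical axes differ between genes. CD34, ERG, MECOM, MSI2 and CRHBP were highest in the 3 WT GSK-LSD1 libraries, HOXA9, HOXA10, MEIS1 and BMI1 were higher in both WT groups, and MYB overlapped between neighbouring groups.

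CD34 is a sialomucin on the surface of stem and progenitor cells, used to isolate them. It measured 455, 449 and 435 CPM in insR GSK-LSD1 libraries, 369.9, 372 and 367 in insR DMSO, 671, 713 and 704 in WT GSK-LSD1 and 298, 308 and 279 in WT DMSO libraries. No group overlapped another, and the order was WT GSK-LSD1, insR GSK-LSD1, insR DMSO, WT DMSO. In WT cells CD34 rose by 1.24 on the log2 scale (SE 0.07, adjusted p = 9.14e-13), or 2.36-fold. In insR cells the log2 fold change was 0.27 (SE 0.07, adjusted p = 0.0925), and all 3 GSK-LSD1 libraries lay above all 3 DMSO libraries. DESeq2 called this insR difference at an adjusted p = 0.0151. The difference between the responses, insR minus WT, was -0.97 (SE 0.10, adjusted p = 1.40e-07). The neighbours in the order that did not differ by the test were the 2 insR groups.

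CRHBP encodes a binding protein of corticotropin-releasing hormone and is known as a transcript of immature blood cells. Its counts were 0, 0 and 1 in insR GSK-LSD1 libraries, 0, 0 and 0 in insR DMSO, 20, 30 and 65 in WT GSK-LSD1 and 0, 1 and 0 in WT DMSO libraries. Only WT GSK-LSD1 libraries held more than a single read, at 3.78, 5.76 and 6.62 CPM. The ratio of summed, depth-scaled counts in WT GSK-LSD1 over WT DMSO libraries was 106, with an exact 95% interval of 18.7 to 4230 that covers counting error only. The WT DMSO level rests on 1 read and lies under the limit of 3 counts over that group, 0.160 CPM, so the size of the ratio is poorly known. The test of CRHBP is no support for a response, since it was tested only through the group where it is high. In insR cells both groups lay under the limit that a count of 3 sets, 0.172 CPM over the GSK-LSD1 and 0.139 CPM over the DMSO libraries, so no fold is given. The difference of responses had no estimable fold.

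ERG is an ETS-family transcription factor needed to maintain blood stem cells. It measured 144, 152 and 133 CPM in insR GSK-LSD1 libraries, 109, 101 and 123 in insR DMSO, 287, 369 and 316 in WT GSK-LSD1 and 119, 136 and 105 in WT DMSO libraries. The 3 WT GSK-LSD1 libraries stood above the other 9, and the other 3 groups lay close together. ERG rose by 1.43 (SE 0.10, adjusted p = 1.45e-10), or 2.69-fold, in WT cells. In insR cells its log2 fold change was 0.36 (SE 0.11, adjusted p = 0.170), with no overlap between the GSK-LSD1 and DMSO libraries, and an adjusted p = 0.0318 when nearly all genes with a count were tested. The insR response was smaller than the WT response by a log2 difference of -1.06 (SE 0.15, adjusted p = 1.25e-05).

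MECOM encodes the zinc-finger factor EVI1 and its longer forms, which act in stem cell self-renewal. It measured 29.5, 26.1 and 23.8 CPM in insR GSK-LSD1 libraries, 20.5, 18.3 and 26.5 in insR DMSO, 71.1, 63.2 and 63.3 in WT GSK-LSD1 and 24.9, 28.5 and 32.7 in WT DMSO libraries. WT GSK-LSD1 libraries again stood above the rest, which overlapped one another. MECOM rose by 1.20 (SE 0.13, adjusted p = 6.87e-08), or 2.29-fold, in WT cells and had a log2 fold change of 0.29 (SE 0.14, adjusted p = 0.659) in insR cells. The difference was -0.91 (SE 0.19, adjusted p = 0.00113). A pseudogene within the MECOM gene, RPL22P1, held 59 counts in all, or 2.11% of those of MECOM.

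MYB is a transcription factor that sustains proliferation of progenitors and is switched down as they mature. It measured 622, 561 and 585 CPM in insR GSK-LSD1 libraries, 651, 599 and 612 in insR DMSO, 568, 535 and 528 in WT GSK-LSD1 and 520.2, 533 and 591 in WT DMSO libraries. Every group overlapped its neighbour in the order, and no neighbours differed by the test. The ends of the order did: insR DMSO libraries lay above WT GSK-LSD1 libraries without overlap (log2 fold change 0.19, SE 0.08, adjusted p = 0.0326). The log2 fold change was -0.07 (SE 0.08, adjusted p = 0.913) in insR and -0.01 (SE 0.08, adjusted p = 0.909) in WT cells. The WT value took the opposite sign, 0.04, with upper-quartile scaling.

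**Figure D2:**
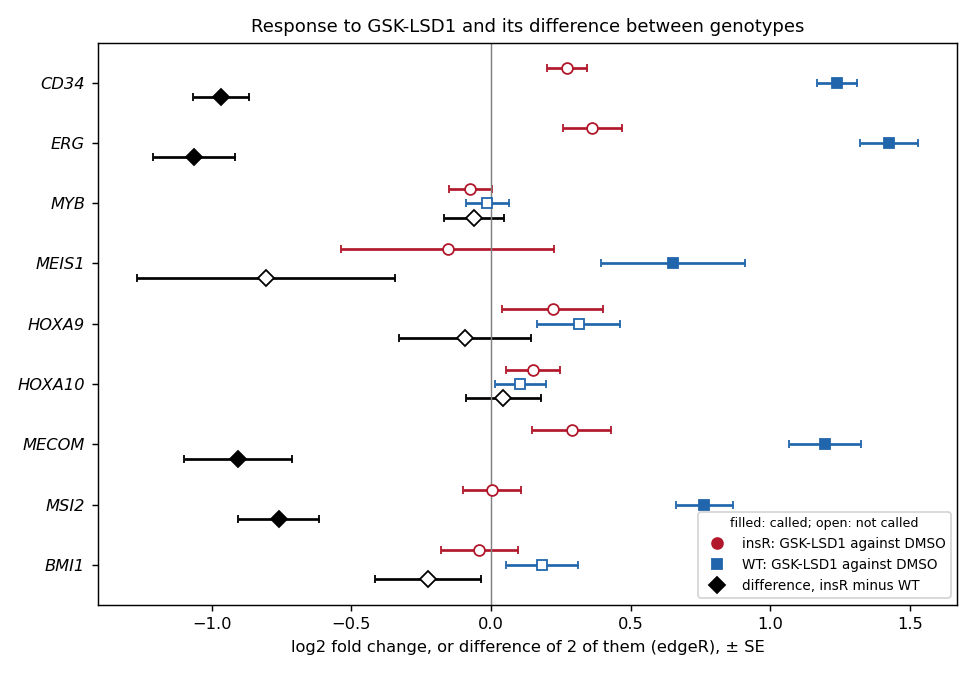
Log2 fold changes of 9 members between GSK-LSD1 and DMSO in insR cells (circles) and WT cells (squares), and their difference, insR minus WT (diamonds), each ± SE from edgeR; filled symbols were called. CRHBP is not drawn because its insR counts allow no fold. CD34, ERG, MECOM and MSI2 lie right of 0 in WT cells and have a called negative difference.

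HOXA9 and HOXA10 are neighbouring homeobox factors of the HOXA cluster, and MEIS1 is a TALE-class homeodomain cofactor that binds DNA with HOXA9. HOXA9 measured 12.9, 16.6 and 11.3 CPM in insR GSK-LSD1 libraries, 12.1, 10.1 and 12.3 in insR DMSO, 35.2, 39.6 and 36.7 in WT GSK-LSD1 and 30.7, 35.4 and 22.9 in WT DMSO libraries. All 6 WT libraries lay above all 6 insR libraries, and within each genotype the treatments overlapped. The response to GSK-LSD1 was 0.22 (SE 0.18, adjusted p = 0.878) in insR and 0.31 (SE 0.15, adjusted p = 0.0890) in WT cells, with a difference of -0.09 (SE 0.24, adjusted p = 0.815). The WT response passed with upper-quartile scaling (adjusted p = 0.0498) and without WT DMSO replicate 2 (adjusted p = 0.0315).

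HOXA10 measured 59.8, 64.5 and 65.2 CPM in insR GSK-LSD1 libraries, 63.2, 54.6 and 52.0 in insR DMSO, 96.6, 93.1 and 94.1 in WT GSK-LSD1 and 93.9, 89.6 and 80.02 in WT DMSO libraries. As for HOXA9, the genotypes were separate and the treatments overlapped. Its response was 0.15 (SE 0.10, adjusted p = 0.800) in insR and 0.11 (SE 0.09, adjusted p = 0.369) in WT cells. The difference was 0.04 (SE 0.13, adjusted p = 0.845). HOXA9 and HOXA10 overlap as gene bodies but not in exons in GENCODE v29. A gene annotated across both, AC004080.3, shares exons with each and held 0 counts. The sources used here do not say how reads in shared exons were assigned, so both levels may miss reads.

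MEIS1 stayed under 10 CPM, at 1.45, 1.24 and 2.17 CPM in insR GSK-LSD1 libraries, 2.03, 1.65 and 1.76 in insR DMSO, 9.26, 9.98 and 5.80 in WT GSK-LSD1 and 4.74, 5.09 and 5.72 in WT DMSO libraries. The WT groups did not overlap, but the lowest GSK-LSD1 library lay just above the highest DMSO library. MEIS1 rose by 0.65 (SE 0.26, adjusted p = 0.0427) in WT cells. That call was lost in 12 of 21 alternatives, DESeq2 (adjusted p = 0.0799) and the fit with a replicate block (adjusted p = 0.0535) among them. Without 1 library it was lost for WT GSK-LSD1 replicate 1 (0.129) or 2 (0.181), WT DMSO replicate 1 (0.125), 2 (0.110) or 3 (0.0532), and insR DMSO replicate 2 (0.0505, all adjusted p). In insR cells the log2 fold change was -0.16 (SE 0.38, adjusted p = 0.980), and the difference of -0.81 (SE 0.46, adjusted p = 0.215) was not called.

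MSI2 is an RNA-binding protein that governs translation in stem cells. It measured 79.8, 89.4 and 87.5 CPM in insR GSK-LSD1 libraries, 78.9, 89.6 and 87.9 in insR DMSO, 135, 176 and 169 in WT GSK-LSD1 and 105, 93.6 and 84.1 in WT DMSO libraries. The WT GSK-LSD1 libraries stood above the other 9, which overlapped. MSI2 rose by 0.76 (SE 0.10, adjusted p = 1.24e-06), or 1.70-fold, in WT cells, while the insR value was 0.00 (SE 0.10). The difference was -0.76 (SE 0.14, adjusted p = 0.000385).

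BMI1 is a subunit of Polycomb repressive complex 1, known for its part in self-renewal. It measured 24.5, 25.3 and 18.6 CPM in insR GSK-LSD1 libraries, 21.2, 24.4 and 24.8 in insR DMSO, 32.3, 33.8 and 38.8 in WT GSK-LSD1 and 30.0, 33.1 and 29.7 in WT DMSO libraries. The 6 WT libraries lay above the 6 insR libraries, with treatments overlapping in each. The responses were -0.04 (SE 0.14, adjusted p = 0.990) in insR and 0.18 (SE 0.13, adjusted p = 0.258) in WT cells, and their difference was -0.22 (SE 0.19, adjusted p = 0.418). A readthrough gene that shares exons with BMI1, COMMD3-BMI1, held 0 counts, and the sources used here do not say how reads in shared exons were assigned. The BMI1 level may therefore miss reads.

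**Figure D3:**
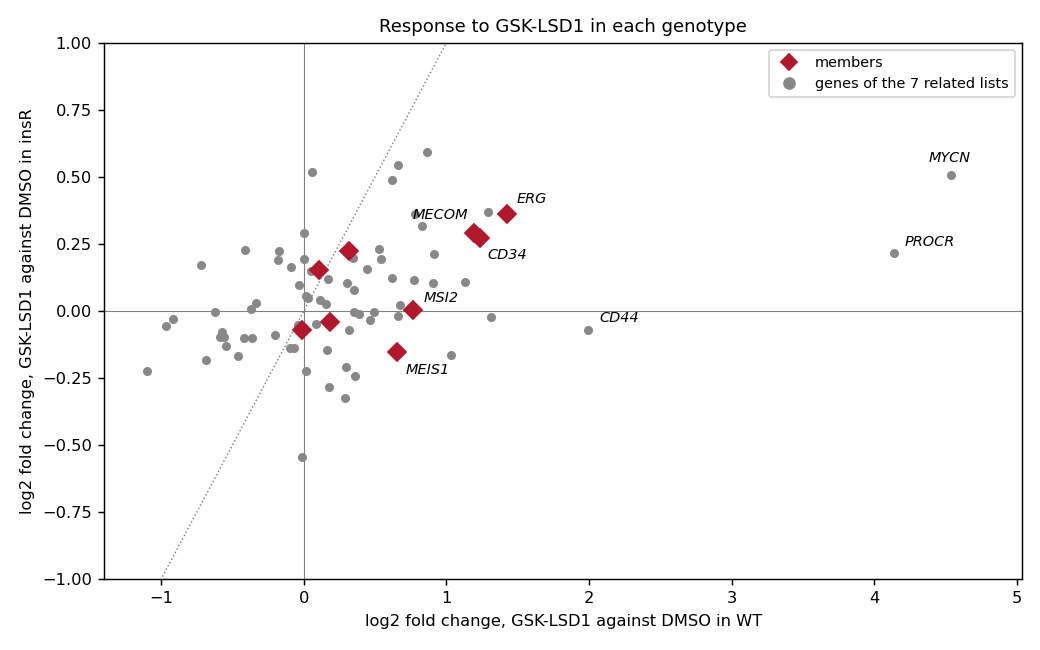
Log2 fold change between GSK-LSD1 and DMSO in insR cells (vertical axis) against that in WT cells (horizontal axis) for 9 members (diamonds, CRHBP left out) and 70 genes of 7 related lists (circles); the dotted line marks equal responses. Called members lie at 0.65 to 1.43 in WT cells and at -0.16 to 0.36 in insR cells.

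Without drug, 5 of the 10 members were lower in insR than in WT cells, HOXA9, HOXA10, MEIS1, MECOM and BMI1, and 1, CD34, was higher. Over all genes tested, 15.6% were called lower and 14.5% higher. This comparison shares the WT DMSO libraries with the drug response of WT cells. The median log2 fold change of the members was -0.41, beside 0.01 over all genes. HOXA9 averaged 11.5 ± 1.24 CPM in insR DMSO and 29.7 ± 6.32 CPM in WT DMSO libraries (SD, n = 3 each), a log2 fold change of -1.37 (SE 0.17, adjusted p = 4.03e-07). MEIS1 averaged 1.81 ± 0.197 CPM in insR DMSO and 5.18 ± 0.494 CPM in WT DMSO libraries, a log2 fold change of -1.48 (SE 0.31, adjusted p = 0.000618). HOXA10 was lower by a log2 fold change of -0.63 (SE 0.09, adjusted p = 1.08e-05). These 3 factors kept their calls in every alternative in which they were tested.

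MECOM and BMI1 were lower in insR DMSO libraries by smaller amounts, at -0.41 (SE 0.14, adjusted p = 0.0298) and -0.41 (SE 0.13, adjusted p = 0.0213). The MECOM libraries of the genotypes overlapped. Leaving out WT DMSO replicate 2 (0.0655) or 3 (0.144), or insR DMSO replicate 1 (0.109) or 2 (0.163, all adjusted p), ended its call. For BMI1 this held for WT DMSO replicate 2 (0.0936) and insR DMSO replicate 1 (0.111). CD34 was the member that was higher, at 369.5 ± 2.36 CPM in insR DMSO and 295 ± 14.8 CPM in WT DMSO libraries, a log2 fold change of 0.32 (SE 0.07, adjusted p = 0.000924). ERG (-0.12, adjusted p = 0.433) and MSI2 (-0.15, adjusted p = 0.310) were not called. MYB had 0.18 (SE 0.08, adjusted p = 0.0770), its libraries did not overlap, and without WT DMSO replicate 3 it passed (adjusted p = 0.0281).

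Under GSK-LSD1, 9 of the 10 members were lower in insR than in WT cells and none was higher. Without CRHBP, 8 of 9 were lower. Of all genes, 27.5% were called lower and 27% higher. The lower members included CD34, at 446 ± 10.4 CPM in insR GSK-LSD1 and 696 ± 22.1 CPM in WT GSK-LSD1 libraries (log2 fold change -0.64, SE 0.07, adjusted p = 4.13e-08), although it was higher in insR cells without drug. ERG had -1.18 (SE 0.10), MECOM -1.31 (SE 0.13) and MSI2 -0.91 (SE 0.10). MEIS1 had -2.29 (SE 0.31), HOXA9 -1.46 (SE 0.16), HOXA10 -0.58 (SE 0.09) and BMI1 -0.63 (SE 0.13). The CRHBP ratio, WT over insR, was 99.0, with an interval of 17.4 to 3942 for counting error. Its insR level rests on 1 read, under the limit of 0.172 CPM over that group, so the size is poorly known. CRHBP was tested only through WT GSK-LSD1 libraries, so its test is no support for a difference. MYB was not called (0.12, SE 0.08, adjusted p = 0.192).

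**Figure D4:**
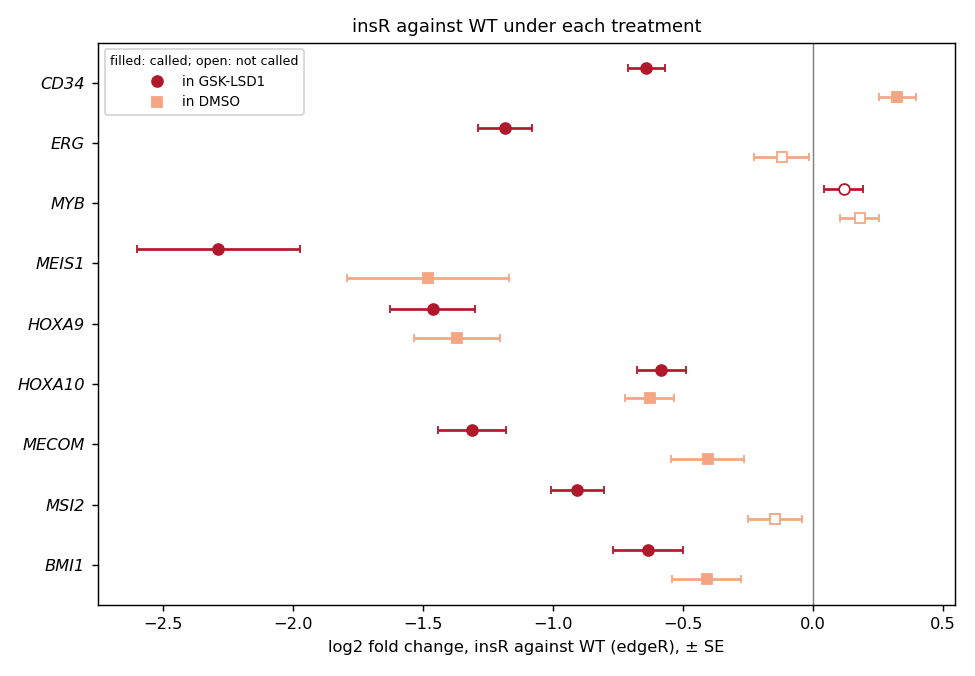
Log2 fold changes of 9 members in insR against WT cells, under GSK-LSD1 (circles) and DMSO (squares), ± SE from edgeR; filled symbols were called. CD34 lies at -0.64 under GSK-LSD1 and 0.32 under DMSO, while HOXA9 and HOXA10 lie at similar values under both.

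The order of levels over the 4 groups separated the members by pattern. Groups that differ in both genotype and drug were compared in the same fit, with 27.4% of all genes called between insR GSK-LSD1 and WT DMSO and 59% between insR DMSO and WT GSK-LSD1 libraries. For ERG, MECOM and MSI2, WT GSK-LSD1 was highest and no neighbours among the other 3 groups differed. The ends of those 3 groups did differ for MECOM, with insR DMSO below WT DMSO (adjusted p = 0.0298, a call lost in 4 alternatives). For CRHBP too WT GSK-LSD1 was highest, with the other groups at a single read or none. For HOXA9 and HOXA10 the 2 WT groups did not differ by the test, nor did the 2 insR groups, and WT DMSO lay above insR GSK-LSD1 (adjusted p = 6.94e-06 for HOXA9 and 0.000372 for HOXA10). BMI1 had this pattern too, with insR DMSO next to WT DMSO (adjusted p = 0.0213). For MEIS1 all neighbours but the 2 insR groups differed. CD34 in insR GSK-LSD1 libraries lay above WT DMSO, by 0.60 on the log2 scale (SE 0.07).

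Across the 12 libraries, log2 CPM of HOXA9 and HOXA10 correlated at r = 0.96, and ERG and MECOM at 0.93. Pairs with CRHBP are left out, since no library outside WT GSK-LSD1 held more than a single read of it. The lowest value was -0.82, between MYB and HOXA9. These points share 4 group means and library scaling, so the values describe the group patterns. Among 9365 genes with at least 10 CPM in their highest group, the genes most like CD34 over the 12 libraries were GAD1 (r = 0.991), CA8 (0.989) and SOX7 (0.985). The most like ERG were S1PR1 (0.982), SCPEP1 (0.980) and FARP1 (0.979), and the most like MECOM were CAMK1D (0.987), FAM219B (0.983) and AIM2 (0.981). HOXA9 was nearest to SUPT20H (0.986), FAM8A1 (0.985) and IFI16 (0.982), and HOXA10 to PGBD1 (0.979), MYO6 (0.978) and MYO10 (0.975). MSI2 was nearest to STXBP6 (0.981), with PNRC1 at 0.976, and BMI1 to TBC1D4, FDX1 and NCK2 (0.956, 0.956 and 0.952). MYB had lower values, with EML3 (0.923), PRDM11 (0.914) and MAPKAPK2 (0.913). MEIS1 and CRHBP stayed under 10 CPM and were not ranked.

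The counts for related genes stand beside the shares of all genes called. In insR against WT cells, as for the members, these were 14.5% higher and 15.6% lower in DMSO, 27% higher and 27.5% lower under GSK-LSD1, and 13.3% higher and 11.8% lower for the difference of responses. Of the factors that work with ERG and MECOM, a list of stem cell transcription factors and partners, 13 of 16 were tested. In WT cells 8 (61.5%) were higher and 4 (30.8%) lower under GSK-LSD1, beside 22.7% and 22.5% of all genes, with a median log2 fold change of 0.49. RUNX1, a core factor of blood stem cells, rose by 1.31 (SE 0.07) to 329, 341 and 333 CPM in WT GSK-LSD1 libraries, against 134, 139 and 131 in WT DMSO libraries. MYCN, a MYC-family factor, rose by 4.54 (SE 0.27) to 28.2, 28.99 and 29.3 CPM in WT GSK-LSD1 libraries, against 1.40, 1.34 and 0.893 in WT DMSO libraries. MYCN passed the count filter only through WT GSK-LSD1 libraries, so its test is no support for a response. The counts of called list genes include it. SOX4 rose by 0.91 (SE 0.09), while KLF1, the erythroid Krüppel-like factor, fell by 0.92 (SE 0.08). Between genotypes, 6 had a lower and 4 a higher response in insR cells, with RUNX1 at -1.33 and KLF1 at 0.89. In DMSO 2 of the 13 were higher in insR cells, HHEX (0.44) and LMO2 (0.91), and 2 lower, SOX4 (-0.99) and FLI1 (-0.55). Under GSK-LSD1 4 were higher and 8 lower in insR than in WT cells. HLF and MLLT3 were at 0 in all libraries.

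Of the HOXA cluster and TALE cofactors other than the members, 14 of 18 were tested. In insR against WT cells in DMSO 7 were lower and 1 higher, with a median of -0.55. HOXA7 measured 23.6, 24.1 and 26.9 CPM in insR DMSO libraries, against 72.9, 74.8 and 102 in WT DMSO libraries (log2 fold change -1.75, SE 0.15, adjusted p = 1.26e-08). The TALE factor MEIS2 was at -1.08 (SE 0.10), HOXA4 at -0.78 and HOXA13 at -1.22. Under GSK-LSD1 9 were lower in insR cells and none was higher, with HOXA7 at -1.89. GSK-LSD1 in WT cells was followed by higher levels of 5 (35.7%) and lower levels of 1 (7.14%), beside 22.7% and 22.5% of all genes. PBX3, a TALE partner of HOX proteins, rose by 0.54, HOXA5 by 0.86 and HOXB3 by 0.62, and the HOXB3 call was lost without WT DMSO replicate 1 (adjusted p = 0.0688).

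**Figure D5:**
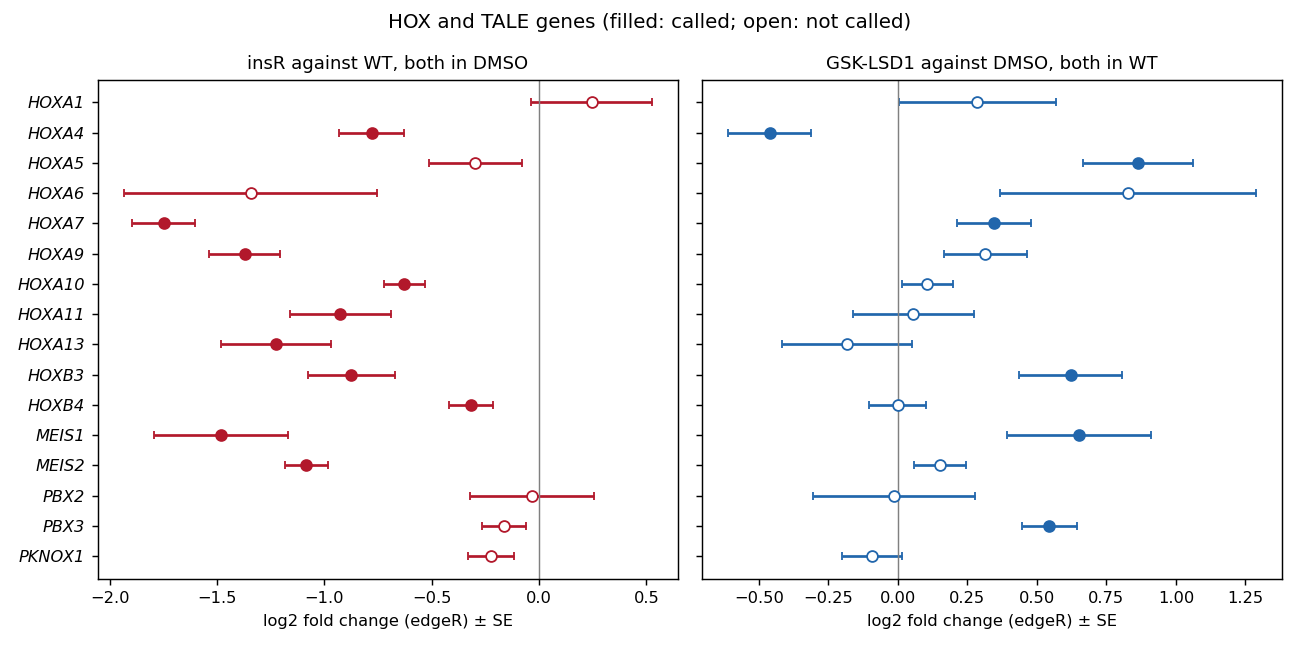
Log2 fold changes (edgeR, ± SE) of 16 HOX and TALE genes, HOXA9, HOXA10 and MEIS1 among them, in insR against WT cells in DMSO (left) and in GSK-LSD1 against DMSO in WT cells (right); filled points were called. HOXA7 lies at -1.75 on the left, and HOXA5 lies at 0.86 on the right.

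Of the Polycomb repressive complex 1 partners of BMI1, 15 of 16 were tested. PCGF2 was left out because its symbol matched no gene identifier, not for low counts. In WT cells 5 (33.3%) were higher and 3 (20%) lower under GSK-LSD1, beside 22.7% and 22.5% of all genes, with a median of 0.02. CBX2 rose by 0.78 and the Polyhomeotic subunit PHC2 by 0.46, while CBX6 fell by 0.37. In DMSO 4 were lower and 2 higher in insR cells. The chromobox subunit CBX8 was at 3.86, 3.13 and 5.10 CPM in insR DMSO libraries, against 12.5, 15.7 and 14.8 in WT DMSO libraries (log2 fold change -1.84, SE 0.22), and CBX2 was at -1.47. Under GSK-LSD1 5 were lower and 2 higher in insR cells. The responses differed for 3, PHC2 (-0.50), CBX6 (0.37, adjusted p = 0.0286) and PCGF5 (0.64, adjusted p = 0.0498). The PCGF5 call was lost in 15 alternatives and that of CBX6 in 8. With 1 library left out, the PCGF5 call ended for insR GSK-LSD1 replicate 1 (0.140) or 2 (0.0686), insR DMSO replicate 1 (0.0856), 2 (0.0511) or 3 (0.0960), WT GSK-LSD1 replicate 1 (0.103) or 3 (0.118) and WT DMSO replicate 2 (0.128) or 3 (0.0658, all adjusted p). The CBX6 call ended for insR GSK-LSD1 replicate 1 (0.0699), insR DMSO replicate 2 (0.0593) or 3 (0.0560), WT GSK-LSD1 replicate 3 (0.0804) and WT DMSO replicate 2 (0.0509) or 3 (0.0730, all adjusted p).

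Of the RNA-binding regulators related to MSI2, 5 of 7 were tested, and 3 (60%) were lower and none higher under GSK-LSD1 in WT cells, beside 22.5% and 22.7% of all genes, with a median of -0.33. LIN28B, which blocks let-7 maturation, fell by 0.57 (SE 0.09), SYNCRIP, an MSI2 partner, by 0.33 and IGF2BP1 by 0.37. LIN28B (0.49) and SYNCRIP (0.36) had higher responses in insR than in WT cells. In DMSO IGF2BP3 was lower (-0.40) and IGF2BP2 higher (0.37) in insR cells, and the IGF2BP2 call was lost without insR DMSO replicate 3 (adjusted p = 0.0525). Under GSK-LSD1 4 were higher and 1 lower in insR cells.

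Of the relatives and coactivators of MYB, 4 of 5 were tested. In WT cells 3 were higher and 1 lower under GSK-LSD1, beside 22.7% and 22.5% of all genes. The acetyltransferase CREBBP, which MYB binds, rose by 0.66 (SE 0.09) in WT cells under GSK-LSD1, as did EP300 by 0.36 and TAF12 by 0.44, while MYBL2 fell by 0.59. The EP300 call was lost without WT DMSO replicate 2 (adjusted p = 0.0535), and TAF12 lost its call when WT GSK-LSD1 replicate 2 (0.109) or 3 (0.0694), or WT DMSO replicate 1 (0.0755) or 3 (0.0534), was left out. The median was 0.40. CREBBP (-0.68) and EP300 (-0.60) had lower and MYBL2 (0.49) a higher response in insR cells. In DMSO TAF12 (0.63) and MYBL2 (0.39) were higher in insR cells, and under GSK-LSD1 1 was higher and 2 were lower there.

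Among surface markers of stem and progenitor cells other than CD34, 7 of 15 were tested. Under GSK-LSD1 in WT cells 4 (57.1%) were higher and 1 (14.3%) lower, beside 22.7% and 22.5% of all genes, with a median of 0.35. The adhesion receptor CD44 rose by 1.99 (SE 0.09) to 379, 399 and 369 CPM in WT GSK-LSD1 libraries, against 103, 103 and 81.5 in WT DMSO libraries. PTPRC, the leukocyte antigen CD45, rose by 1.13, while the stem cell factor receptor KIT fell by 0.68. PROCR, the endothelial protein C receptor found on blood stem cells, rose by 4.14 (SE 0.39). It averaged 34.0 CPM in WT GSK-LSD1 and 1.81 CPM in WT DMSO libraries, so the size of its rise rests on a low DMSO level. CD44 (-2.07), PTPRC (-1.02) and PROCR (-3.92) had lower and KIT (0.50) a higher response in insR cells. In DMSO 4 were higher in insR cells, CD44 (0.83), CD109 (0.74) and KIT (0.34) among them, and ITGA6 was lower (-0.78, lost without insR DMSO replicate 1 at an adjusted p = 0.0581). Under GSK-LSD1 2 were higher and 4 lower in insR cells. TEK and SPINK2 were at 0 in all libraries, and FLT3 and PROM1 had 1 count each.

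The LSC17 score is a published weighted sum of leukaemia stem cell genes that contains CD34, with weights of either sign. The score was not computed here, and a higher level of one of its genes need not mean a higher score. Of the 16 score genes other than CD34, 14 were tested. Under GSK-LSD1 in WT cells 5 (35.7%) were higher and 3 (21.4%) lower, beside 22.7% and 22.5% of all genes, with a median of 0.14. LAPTM4B rose by 0.77, ZBTB46 by 1.29 and SMIM24 by 1.04, and ADGRG1, an adhesion G protein-coupled receptor, fell by 0.97. SMIM24 (-1.20) and LAPTM4B (-0.66) had lower and ADGRG1 (0.91) and CDK6 (0.46) higher responses in insR cells, with 3 lower and 2 higher in all. In DMSO 4 were higher and 6 lower in insR cells, FAM30A (0.59) among the higher and ARHGAP22 (-0.81), ZBTB46 (-1.12) and CDK6 (-0.40) among the lower. Under GSK-LSD1 2 were higher and 4 lower in insR cells.

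Over all 72 tested genes of the 7 lists, 30 (41.7%) were higher and 16 (22.2%) lower under GSK-LSD1 in WT cells, beside 22.7% and 22.5% of all genes, so the share lower was that of all genes. The median was 0.17. In insR cells edgeR called 0 of the 72, beside 0.241% of all genes called higher and 0.264% called lower. DESeq2 and both limma fits also called 0. At an unadjusted p under 0.05 there were 8 list genes. The share of all genes at that unadjusted threshold is not given here, so the 8 are not read as a response. The responses were lower in insR cells for 16 (22.2%) and higher for 12 (16.7%), beside 11.8% and 13.3% of all genes. In DMSO 21 (29.2%) were lower and 16 (22.2%) higher in insR cells, beside 15.6% and 14.5% of all genes. Under GSK-LSD1 33 (45.8%) were lower and 15 (20.8%) higher in insR cells, beside 27.5% and 27% of all genes.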

How the data were processed

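RNA of 12 SET-2 libraries was made into 3′ tag libraries. The deposited values were whole-number read counts per gene and a table of normalised counts (a signal scaled by size factors). Per the submitters' processing notes, bcl2fastq 2.2, STAR 2.6.0c, HTSeq 0.9.1 and DESeq2 were used with hg19. Neither annotation release nor strand setting is given in those notes. Reads from a gene and its antisense partner cannot be told apart. The normalised signal came out as whole reads for 100% of non-zero values (tolerance 0.01) once each deposited value was divided by that of 1 read. These reads differed from the deposited counts in 0 genes, and edgeR on them called 5816 genes in the WT drug response, as on the counts. Lines that name no gene were left out. Reads in no gene were 13.7 to 19.5% of uniquely mapped reads, and all lines for non-unique and ambiguous reads made up 57.9 to 62.6% and 0.676 to 0.748% of each count table.

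Counts were tested with edgeR 4.0.16 in R 4.3.3: TMM scaling, filterByExpr, robust quasi-likelihood fit, 1 mean per group over all 12 libraries and contrasts between groups, with SE taken as the log2 fold change over the square root of F. CPM are counts over the TMM library size. Limma 3.58.1, DESeq2 1.42.0, other scalings and filters, a stricter threshold, single-library omissions and a replicate block were alternatives, and the fit on reads recovered from the normalised table was chosen after seeing the data. The scripts were tested on simulated data. Nothing states that the 3 libraries of a group came from separate cultures. The p-values then measure only the spread between libraries, which may be technical. Libraries with the same replicate number deviated together no more than others (r -0.17 to 0.20 over 18 pairs). With 3 libraries in each group, this cannot exclude a pairing by number. One limit of detection is 3 counts, or 0.296 to 0.62 CPM per library, for counting error only.

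The members and gene lists were chosen with earlier results of these data known. All 10 members are named with every library. Of each list, up to 4 called genes of lowest p are named per comparison, and genes outside this rule (FLT3, PROM1 and genes at 0) were named after their values were seen. Some genes that this rule picks are counted but not reported here by name. Promoters are from RefSeq, GRCh38.p14, and were matched by symbol.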

Additional observations from a re-analysis of the deposited data

Results flagged for a closer look

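The response to GSK-LSD1 differed between insR and WT cells, by the interaction term of the edgeR fit, for 4 members and 20 named list genes. Among all genes tested, 11.8% had a lower and 13.3% a higher response in insR cells. Of the 72 list genes tested, 16 had a lower and 12 a higher response, so the 20 are a part of them. Values are log2 differences, insR minus WT. Lower responses in insR cells were found for the members CD34 (-0.97), ERG (-1.06), MECOM (-0.91) and MSI2 (-0.76). Of the stem cell factors, RUNX1 (-1.33), MYCN (-4.03) and HHEX (-0.80) were lower and the erythroid factor KLF1 was higher (0.89). MYCN passed the count filter only through WT GSK-LSD1 libraries, so its test is no support for a difference. Of the Polycomb genes, PHC2 was at -0.50, CBX6 at 0.37 and PCGF5 at 0.64. The PCGF5 call was lost in 15 and the CBX6 call in 8 of 21 alternatives. The RNA-binding regulators LIN28B (0.49) and SYNCRIP (0.36) were higher. Of the MYB group, CREBBP (-0.68) and EP300 (-0.60) were lower and MYBL2 (0.49) higher. Of the surface markers, CD44 (-2.07), PTPRC (-1.02) and PROCR (-3.92) were lower and KIT (0.50) higher. Of the LSC17 genes, SMIM24 (-1.20) and LAPTM4B (-0.66) were lower and ADGRG1 (0.91) and CDK6 (0.46) higher.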

How the results depend on the processing

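Among 1018 values of member fold changes under the alternatives, 978 kept their direction and their side of the threshold, 18 lost and 5 gained a call and 17 turned in sign, none of them called. The insR response had 0 members called, 1 without a filter beyond 1 count and 1 by DESeq2. It had 65 genes called, 118 without that filter, 39 by limma-trend and 25 at an adjusted p below 0.01, and 28 to 91 with 1 library left out. The difference of responses had 3228 genes called and 1896 at an adjusted p below 0.01. Over all alternatives, log2 values ran from -0.063 to 0.041 for MYB in WT cells. In insR cells they ran from -0.054 to 0.043 for MSI2 and from -0.12 to 0.10 for BMI1. Differences of responses ran from -0.24 to 0.056 for HOXA9 and from -0.0065 to 0.14 for HOXA10. MYB in WT cells was 0.036 with upper-quartile scaling and 0.032 with at least 10 CPM in 3 libraries. MSI2 in insR cells was -0.0016 by limma-trend, and the HOXA10 difference was -0.00086 with at least 10 CPM. The cause was not tested. With the replicate block 5 members were called in the WT response, MEIS1 losing its call (adjusted p = 0.0535), and no other member's call changed. Nothing states that libraries with the same replicate number were paired. MEIS1 and CRHBP were not tested with at least 10 CPM. Depth limits CRHBP, whose insR and WT DMSO levels cannot be told from 0, and MEIS1, at under 10 CPM.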
